A study of Mus musculus with 14 samples.

Results

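The genes of prostaglandin E2 reception and of eicosanoid synthesis were followed in macrophages that had been exposed to the supernatants of dying or living fibroblasts. The set held the prostaglandin E2 receptors Ptger2, Ptger3 and Ptger4, the cyclooxygenases Ptgs1 and Ptgs2, the prostaglandin E synthase Ptges, and Alox5, Alox5ap, Lta4h and Ltc4s of the leukotriene pathway. Members were taken by gene symbol, and all 10 were found among the 55414 genes of the table. Of these 10, 9 passed the filter on low counts and were tested together with all 12851 genes that passed. Ptgs2 did not pass.

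Primary bone marrow-derived macrophages (pBMDMs) of wildtype C57BL/6N mice, differentiated with M-CSF, were kept for 24 h in the filtered supernatant of Pfa1 mouse embryonic fibroblasts (MEFs). Pfa1 cells are a fibroblast line in which 4-hydroxytamoxifen (4OHT) deletes GPX4, the enzyme that detoxifies lipid peroxides, so that the fibroblasts die by ferroptosis. The deletion was in the donor fibroblasts and not in the macrophages. The supernatants came from MEFs without treatment (ctrl), with 1 µM 4OHT (4OHT, written Tam in the labels), with 4OHT and 1 µM Ferrostatin-1, a radical-trapping inhibitor of ferroptosis (4OHT+Fer1), or with Ferrostatin-1 alone (Fer1), and a further group received fresh medium (medium). Each supernatant had 3 replicates and fresh medium had 2, which gave 14 samples in 5 groups. The 4OHT and Ferrostatin-1 were applied with the supernatants, so what the fibroblasts released and what the agents did to the macrophages cannot be told apart. In bulk RNA, fewer cells that express a gene and less RNA per cell cannot be told apart either.

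Eicosanoids are lipid mediators made from arachidonic acid after phospholipases have freed it from membranes. Cyclooxygenases turn it into prostaglandin H2, from which prostaglandin E synthase makes prostaglandin E2, and 5-lipoxygenase with its activating protein turns it into leukotriene A4, from which LTA4 hydrolase makes leukotriene B4 and LTC4 synthase makes the cysteinyl leukotrienes. Prostaglandin E2 acts through EP receptors, of which EP2 and EP4 raise cAMP and EP3 mostly lowers it, and macrophages both make these lipids and respond to them.

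The promoters of the 4 members that differed between groups by the test described below are shown so that their sequences can be set beside the levels. Each is the stretch of 250 bases before the transcription start of the RefSeq entry in mouse build GRCm38.p6, written 5′ to 3′ on the gene's own strand, with the letters GGGCGG of the GC box core, on either strand, in capitals. Alox5 lies at chr6:116461179-116461428 on the minus strand, Ltc4s at chr11:50238533-50238782 on the minus strand, Ptger3 at chr3:157566626-157566875 on the plus strand and Ptger4 at chr15:5244188-5244437 on the minus strand.
Alox5: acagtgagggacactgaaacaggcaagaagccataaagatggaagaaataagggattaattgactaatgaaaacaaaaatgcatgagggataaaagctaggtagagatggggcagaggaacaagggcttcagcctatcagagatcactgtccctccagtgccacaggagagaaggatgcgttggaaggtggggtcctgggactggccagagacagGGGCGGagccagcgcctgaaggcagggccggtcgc
Ltc4s: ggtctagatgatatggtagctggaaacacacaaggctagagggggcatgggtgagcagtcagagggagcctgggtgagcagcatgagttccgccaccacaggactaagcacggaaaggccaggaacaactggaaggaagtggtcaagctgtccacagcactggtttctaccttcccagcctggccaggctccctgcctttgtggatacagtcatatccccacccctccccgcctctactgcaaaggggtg
Ptger3: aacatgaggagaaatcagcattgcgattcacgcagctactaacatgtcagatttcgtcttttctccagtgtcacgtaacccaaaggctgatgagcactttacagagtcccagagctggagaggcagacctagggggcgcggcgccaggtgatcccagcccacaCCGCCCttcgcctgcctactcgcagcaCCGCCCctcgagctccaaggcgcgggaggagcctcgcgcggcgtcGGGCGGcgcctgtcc
Ptger4: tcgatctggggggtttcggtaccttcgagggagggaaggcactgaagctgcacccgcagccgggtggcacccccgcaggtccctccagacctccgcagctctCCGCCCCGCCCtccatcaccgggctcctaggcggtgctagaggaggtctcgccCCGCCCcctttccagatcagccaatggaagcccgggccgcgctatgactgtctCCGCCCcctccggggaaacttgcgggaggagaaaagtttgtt
The GC box core stood once in the Alox5 promoter and not in that of Ltc4s, while Ptger3 held 3 and Ptger4 held 4 copies, a pair of which overlap in 1 run of capitals. It was present in 32.7% of the 32851 promoter windows of the same length. The core TGACG of the cAMP response element, on either strand, stood in none of the 9 member promoters with an entry and in 17.8% of all windows, and the TATA box letters TATAAA stood in none of the 9 and in 12.4% of all. A match is a description of letters and not a binding site.

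Libraries held between 7823051 and 11052352 counts, and 3 counts, the smallest amount taken here to differ from none, were worth 0.272 to 0.381 CPM, the count relative to a library size scaled by edgeR's TMM factors. The 3′ end of transcripts was sequenced, so counts do not scale with transcript length. All 7 macrophage markers were present in every sample, with a summed level of 18650 to 43692 CPM. Most of this sum was Lyz2, at 13967 to 36193 CPM, while Csf1r ranged from 1409 to 4783 CPM and Fcgr1 from 119 to 949 CPM. Among other cell types, the mast cell markers Cma1, Fcer1a, Ms4a2, Tpsab1 and Tpsb2 were at 0 in all samples, as were the neutrophil markers Elane and Ly6g. Other markers were present. The neutrophil markers S100a8 and S100a9 ranged from 2.21 to 21.0 and from 0.633 to 24.6 CPM. The fibroblast markers Col1a1 and Col1a2 ranged from 5.08 to 41.6 and from 7.75 to 67.4 CPM. In the tests, all 14 samples entered 1 edgeR quasi-likelihood fit with the replicate number, taken as the mouse, as a block. A gene was called when its log2 fold change was above 1 in size and its p-value, adjusted by Benjamini-Hochberg over all 12851 genes, was under 0.05. This edgeR adjusted p is the one printed throughout.

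**Figure D1:**
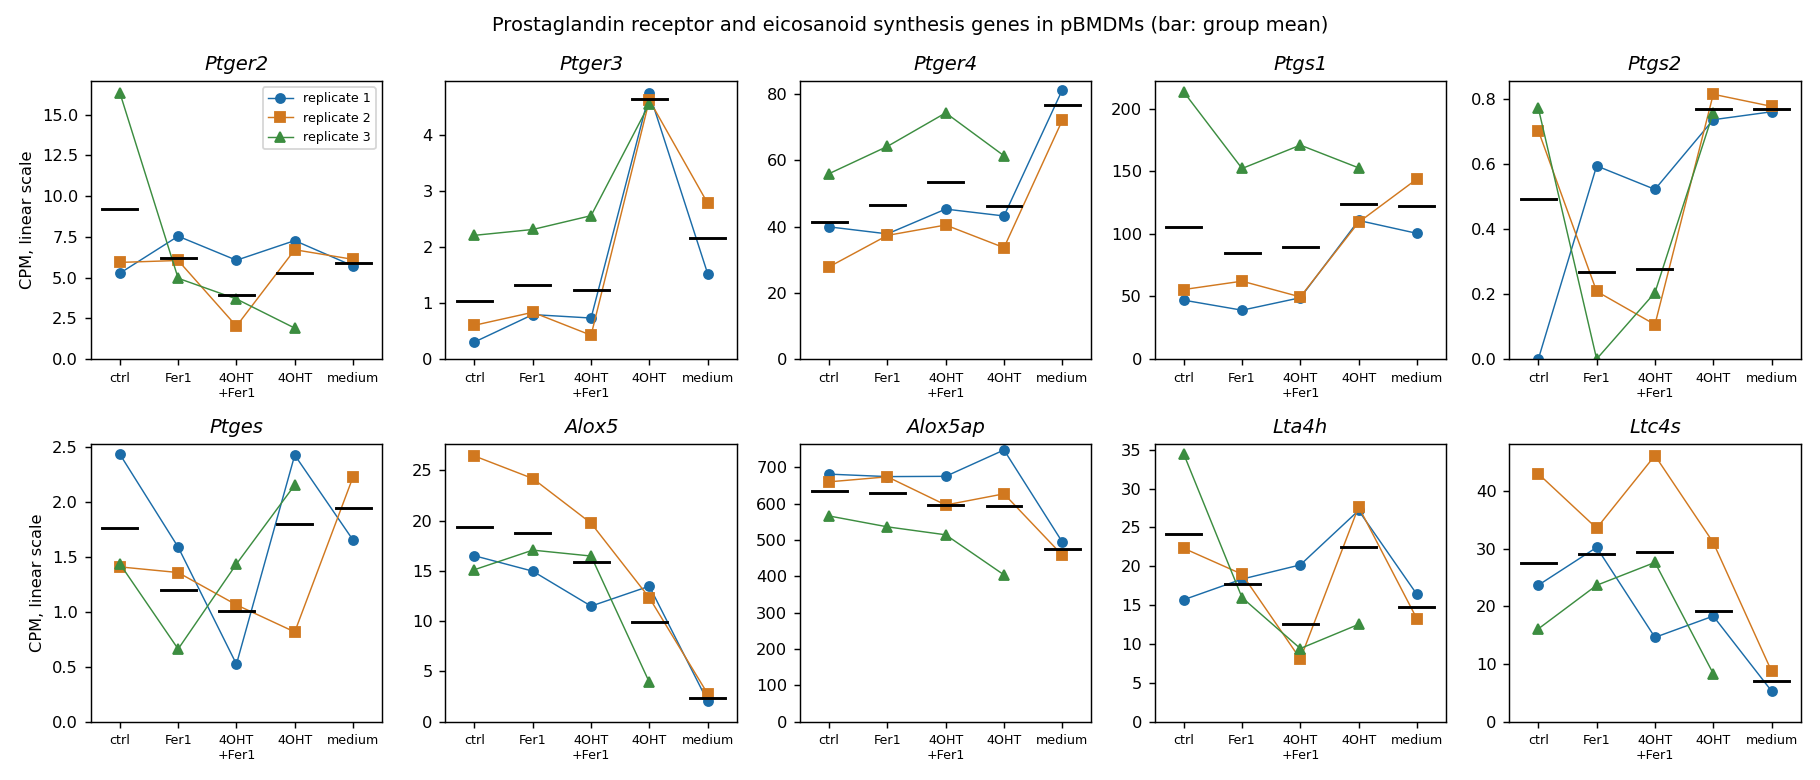
CPM on a linear scale (y axis, 1 panel per gene) of the 10 genes in the 5 groups (x axis), with a marker and line for each replicate number and a black bar for the group mean. The 3 4OHT samples of Ptger3 lie at 4.56 to 4.74 CPM above all others, and the 2 medium samples of Alox5 lie at 2.03 and 2.78 CPM below all others.

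Ptger3 encodes EP3, the prostaglandin E2 receptor that couples mainly to Gi proteins (ENSMUSG00000040016, chr3:157566892-157645888 on the plus strand in GENCODE M21, GRCm38). Replicates 1, 2 and 3 had 0.304, 0.603 and 2.21 CPM in ctrl, 0.794, 0.834 and 2.31 CPM in Fer1 and 0.732, 0.425 and 2.56 CPM in 4OHT+Fer1. The 4OHT samples had 4.74, 4.62 and 4.56 CPM and the medium samples 1.52 and 2.78 CPM. Every 4OHT sample stood above each of the other 11, which was so for 46 of the 12851 genes, or 0.358%. In counts these were 36 to 51 reads in 4OHT and 3 to 20 in ctrl, and ctrl replicate 1 was at the limit of 3 counts. The log2 fold change against ctrl was 2.53 (SE 0.52, edgeR adjusted p = 0.0363). The call was lost without the block (2.16, edgeR adjusted p = 0.425), in a fit of the 4OHT and ctrl samples alone (2.42, 0.366), without replicate 1 (2.01, 0.482) and without replicate 2 (2.30, 0.593), and it was kept without replicate 3 (3.33, 0.0192).

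Against the rescued supernatant, Ptger3 in 4OHT differed by a log2 fold change of 2.24 (SE 0.51, edgeR adjusted p = 0.0573), just short of the threshold. DESeq2 called it (2.32, DESeq2 adjusted p = 0.00535). In 4OHT+Fer1 against Fer1 the log2 fold change was -0.16. The difference between the 4OHT effect without and with Fer1 was 2.68 (SE 0.76, edgeR adjusted p = 0.375). In medium against ctrl Ptger3 differed by 1.76 (SE 0.61, edgeR adjusted p = 0.0910), which was not called, although 2 of 9 alternative analyses called it. Within replicate numbers 1, 2 and 3 Ptger3 was higher in 4OHT than in ctrl each time, by 0.98 to 3.26 in log2 CPM, as were 15.4% of all genes, and the smallest difference was that of replicate 3. The order of the group means was 4OHT, medium, Fer1, 4OHT+Fer1 and ctrl, and of the neighbours in this order 4OHT and medium alone had ranges that did not overlap, as was so for 14.7% of genes in that direction.

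Ptger4 encodes EP4, which couples to Gs proteins (ENSMUSG00000039942, chr15:5206661-5244187, minus strand). By 3′ counts it was the most abundant of the 3 EP receptors in all 14 samples. It had 39.9, 27.8 and 56.0 CPM in replicates 1 to 3 of ctrl, 37.8, 37.3 and 64.2 CPM in Fer1, 45.3, 40.5 and 74.3 CPM in 4OHT+Fer1 and 43.2, 33.6 and 61.4 CPM in 4OHT. Fresh medium gave 81.3 and 72.1 CPM. Both medium samples exceeded every ctrl sample, as for 17.1% of all genes, and every Fer1 and 4OHT sample, and 4OHT+Fer1 replicate 3 lay between them. The log2 fold change of medium against ctrl was 1.19 (SE 0.15, edgeR adjusted p = 0.000398) and that of 4OHT against medium -1.03 (SE 0.15, edgeR adjusted p = 0.00409). Without the block these were 0.89 (edgeR adjusted p = 0.204) and -0.74 (0.481), and without replicate 2 they were 1.08 (0.136) and -0.95 (0.387). Without replicate 1 the second was -1.10 (0.224), and with no filter on low counts it was -0.998 (0.00284), short of the fold required for a call. Among the 4 supernatants the receptor moved little, with a log2 fold change of 0.17 in 4OHT against ctrl (SE 0.14, edgeR adjusted p = 0.760). Replicate 3 had the highest level in each of the 4 supernatants. The gene shares exonic sequence with Ttc33 and Gm15937 on the opposite strand, and whether the counting used strand is not given in the sources used here.

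Ptger2, the gene of the Gs-coupled EP2 receptor (ENSMUSG00000037759, chr14:44988195-45003820, plus strand), ranged from 1.90 to 16.3 CPM with a median of 5.99 CPM. Its highest value was ctrl replicate 3 and its lowest 4OHT replicate 3, so that the sign of 4OHT against ctrl rested on this replicate (log2 fold change -0.77 with it and 0.30 without it, not called with or without). All neighbouring groups overlapped.

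Ptgs1 encodes cyclooxygenase 1, the constitutive enzyme (ENSMUSG00000047250, chr2:36230426-36252272, plus strand). It was the more abundant cyclooxygenase gene in all samples. Replicates 1, 2 and 3 had 47.0, 55.5 and 213 CPM in ctrl, 39.0, 62.2 and 152 CPM in Fer1, 48.9, 49.6 and 171 CPM in 4OHT+Fer1 and 111, 109 and 153 CPM in 4OHT, and medium had 100 and 144 CPM. In replicates 1 and 2 the 4OHT and medium samples were above the other supernatants, whereas replicate 3 was high in each supernatant. On the log2 scale replicate 3 exceeded the mean of replicates 1 and 2 by 2.06 in ctrl, 1.62 in Fer1 and 1.79 in 4OHT+Fer1, but by 0.47 in 4OHT. Ptger3 had the same arrangement, with 1.90, 1.30 and 1.84 in these groups and -0.04 in 4OHT. The log2 fold change of Ptgs1 was 0.63 in 4OHT against ctrl (SE 0.28, edgeR adjusted p = 0.431), 0.79 in 4OHT against 4OHT+Fer1 (SE 0.28, 0.251) and 1.03 in medium against ctrl (SE 0.31, 0.0546), none of them called. Without replicate 3 the first was 1.10 (edgeR adjusted p = 0.0247) and the second 1.18 (0.0184), and both were called. The third was called in 4 of 9 alternative analyses.

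Ptgs2, the inducible cyclooxygenase gene (ENSMUSG00000032487, chr1:150100031-150108227, plus strand), had 65 counts over all 14 samples together. The levels were 0, 0.704 and 0.773 CPM in ctrl, 0.595, 0.209 and 0 CPM in Fer1, 0.523, 0.106 and 0.205 CPM in 4OHT+Fer1, 0.738, 0.816 and 0.759 CPM in 4OHT and 0.762 and 0.779 CPM in medium. In 5 samples it had 3 counts or fewer, and the 2 samples at 0 allow up to 0.304 CPM (ctrl) and 0.330 CPM (Fer1). A difference of Ptgs2 between the groups was not detectable at this depth (with no filter on low counts, log2 fold change 0.58 in 4OHT against ctrl, SE 0.96, edgeR adjusted p = 0.983).

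Ptges (ENSMUSG00000050737, chr2:30889471-30929863, minus strand), whose product makes prostaglandin E2 from prostaglandin H2, lay between 0.523 and 2.43 CPM, at 5 to 24 counts, and its log2 fold change in 4OHT against ctrl was 0.00 (SE 0.66). Its groups overlapped throughout.

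Alox5 encodes 5-lipoxygenase, the first enzyme of leukotriene synthesis (ENSMUSG00000025701, chr6:116410077-116461178, minus strand), and it showed the largest difference of the 9 tested members. Replicates 1, 2 and 3 had 16.5, 26.4 and 15.1 CPM in ctrl, 15.0, 24.2 and 17.1 CPM in Fer1, 11.5, 19.8 and 16.5 CPM in 4OHT+Fer1 and 13.5, 12.3 and 3.92 CPM in 4OHT, while medium had 2.03 and 2.78 CPM. Both medium samples lay below all 12 supernatant samples, as for 5.88% of all genes. The log2 fold change was -3.13 in medium against ctrl (SE 0.43, edgeR adjusted p = 0.000690), and it kept its call in 8 of 9 alternative analyses, the exception being that without replicate 2 (-3.08, edgeR adjusted p = 0.128). Alox5 was also higher in 4OHT than in medium, with a log2 fold change of 2.17 (SE 0.43, edgeR adjusted p = 0.0144), which was not called without the block (2.04, 0.0842), without replicate 1 (1.81, 0.355) or without replicate 2 (2.19, 0.491).

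Between supernatants the level of Alox5 was lower in 4OHT than in ctrl within each replicate number, by 0.29 to 1.89 in log2 CPM, as were 14.4% of all genes, and the 3 samples of 4OHT lay below the 3 of ctrl, as did 5.84% of genes. This difference was not called, at a log2 fold change of -0.97 (SE 0.32, edgeR adjusted p = 0.225). The order of the group means was ctrl, Fer1, 4OHT+Fer1, 4OHT and medium, and of the neighbours in this order 4OHT and medium alone did not overlap.

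Ltc4s encodes LTC4 synthase, which makes the first of the cysteinyl leukotrienes (ENSMUSG00000020377, chr11:50236461-50238616, minus strand). Its levels in replicates 1, 2 and 3 were 23.7, 43.0 and 16.1 CPM in ctrl, 30.3, 33.6 and 23.7 CPM in Fer1, 14.6, 46.2 and 27.6 CPM in 4OHT+Fer1 and 18.3, 31.1 and 8.35 CPM in 4OHT, against 5.33 and 8.79 CPM in medium. The medium samples lay below all supernatant samples except 4OHT replicate 3, which was between them. The log2 fold change of medium against ctrl was -2.13 (SE 0.39, edgeR adjusted p = 0.00389) and that of 4OHT against medium 1.59 (SE 0.39, edgeR adjusted p = 0.0385). Without the block the first was -1.96 (edgeR adjusted p = 0.0882) and the second 1.45 (0.358), without replicate 1 they were -2.16 (0.0732) and 1.51 (0.431), and without replicate 2 -2.03 (0.215) and 1.44 (0.625). An exon of Gm26542 overlaps the gene on the opposite strand, as predicted genes do for Ptger2, Ptgs1 and Alox5ap.

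Alox5ap, the gene of the 5-lipoxygenase activating protein, had the highest counts of the set, between 404 and 748 CPM (ENSMUSG00000060063, chr5:149264767-149288153, plus strand). It had 681, 660 and 566 CPM in ctrl and 495 and 458 CPM in medium, with a log2 fold change of -0.55 (SE 0.16, edgeR adjusted p = 0.0512) that was not called. The direction was that of Alox5 and Ltc4s, but the change was smaller. The lowest sample of all was 4OHT replicate 3, at 404 CPM.

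Lta4h (ENSMUSG00000015889, chr10:93453411-93484875, plus strand), whose product makes leukotriene B4, ranged from 8.07 to 34.5 CPM and was called in no comparison. It had 27.2, 27.7 and 12.5 CPM in 4OHT against 20.2, 8.07 and 9.42 CPM in 4OHT+Fer1, higher within each replicate number, as were 15.2% of all genes (log2 fold change 0.86, SE 0.39, edgeR adjusted p = 0.410). For Ptger2, Alox5, Alox5ap and Ltc4s, 4OHT replicate 3 was the lowest of the 12 supernatant samples. This library had the smallest total, 7823051 counts, and the largest share in its 10 most abundant genes, 21.7%, and their part in these values was not tested.

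**Figure D2:**
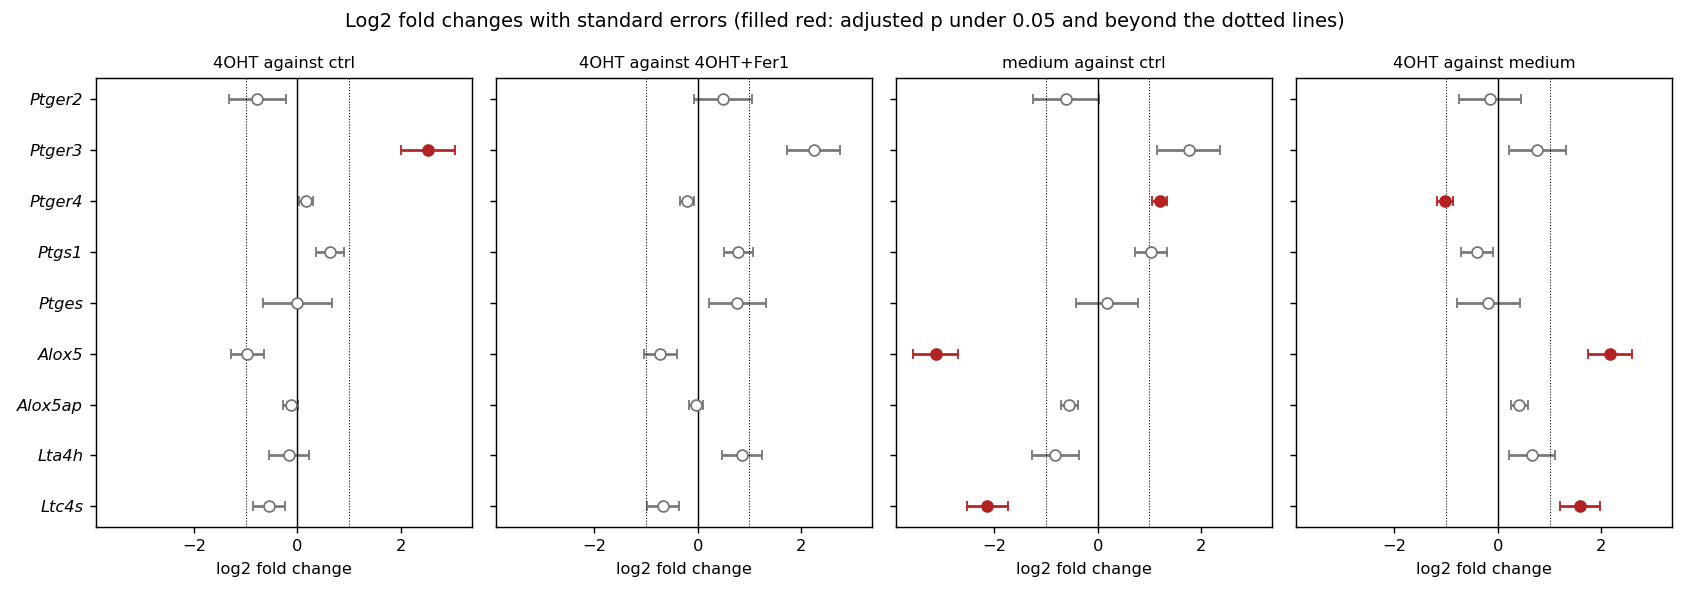
Log2 fold changes (x axis) of the 9 tested genes (y axis) in 4 comparisons, with bars of 1 SE, filled red where the gene was called, and dotted lines at 1 and -1. Ptger3 stands out in 4OHT against ctrl at 2.53, and Alox5 (-3.13), Ltc4s (-2.13) and Ptger4 (1.19) in medium against ctrl.

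Counted over the set, 1 of 9 tested members was called in 4OHT against ctrl, Ptger3, beside 1.11% of all genes. In 4OHT against 4OHT+Fer1 edgeR called 0 (1.03% of all genes), with 4 at an unadjusted p under 0.05 (11.8% of all genes), and DESeq2 called 1. With Ferrostatin-1 present on both sides, 4OHT+Fer1 against Fer1, edgeR and DESeq2 called 0 (0.0233% of all genes by edgeR) and 0 had an unadjusted edgeR p under 0.05 (2.07% of all genes). In Fer1 against ctrl edgeR and DESeq2 likewise called 0 (0.00% of all genes by edgeR), with 0 at an unadjusted edgeR p under 0.05 (1.14% of all genes). In the test of the 4OHT effect without against with Fer1, edgeR and DESeq2 called 0 (0.0311% of all genes by edgeR) and 1, Ptger3, had an unadjusted edgeR p under 0.05 (6.20% of all genes). The median log2 fold change of the 9 members in 4OHT against ctrl was -0.13, beside 0.01 over all genes tested.

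Fresh medium against ctrl compared macrophages without and with the supernatant of living fibroblasts. What the fibroblasts released, what they used up and any difference of base medium cannot be told apart in it. The paper lists RPMI for primary macrophages and DMEM for Pfa1 cells, whereas the sample labels give DMEM for the macrophages. Here 3 of 9 members were called, Ptger4 higher and Alox5 and Ltc4s lower in medium, beside 7.79% of all genes (3.69% higher and 4.10% lower). The same 3 were called in 4OHT against medium, beside 3.07% of all genes, and since both comparisons use the 2 medium samples they are not independent of each other. Without the block, 1 member (Alox5) was called in medium against ctrl and 0 in 4OHT against medium. Markers of macrophages and some of other cell types moved with the medium samples. Of the 7 macrophage markers, 6 had a positive log2 fold change in medium against ctrl, with a median of 0.73 beside 0.01, and 0 were called. Csf1r had a mean of 2059 CPM in ctrl and 4185 CPM in medium, and Itgam 751 and 557 CPM. In 4OHT against medium 1 of the 7 was called, lower, beside 1.64% of all genes. The 8 neutrophil markers summed to 38.2 and 55.2 CPM in medium and to 2.87 to 28.0 CPM in the supernatant samples, with 3 of the 8 at 3 counts or fewer in every sample. Of the 4 tested, 2 (S100a8 and Ngp) were called higher in medium against ctrl. The 4 megakaryocyte and platelet markers summed to 89.1 and 105 CPM in medium and to 176 to 413 CPM in the others, almost all of it Pf4. Over all 14 samples Pf4 had 32569 counts, beside 83 for Ppbp, 41 for Itga2b and 3 for Gp9, so the list was in effect Pf4 alone. Of the 2 tested, Pf4 was called in both comparisons, lower in medium. Ppbp went the other way, with a mean of 0.842 CPM in medium and 0.432 CPM in ctrl, and was not called. The 8 mast cell markers summed to 1.22 and 3.68 CPM in medium and to at most 0.810 CPM elsewhere, but 7 of the 8 were at 3 counts or fewer in every sample. That sum was mostly Hdc, with 29 and 10 counts in replicates 1 and 2 of medium, which was not called (medium against ctrl, log2 fold change 2.74, edgeR adjusted p = 0.0588). The 6 dendritic cell markers summed to 2.00 and 2.79 CPM in medium against at most 1.39 CPM elsewhere, and 0 of them passed the filter. Clec9a gave the largest part, with 18 and 8 counts in replicates 1 and 2 of medium. Cd209a went the other way, with a mean of 0.119 CPM in medium and 0.278 CPM in ctrl. The 8 fibroblast markers summed to 33.5 and 102.6 CPM in medium and to 15.5 to 121 CPM elsewhere, with wide differences between replicates. Of the 4 tested, the collagen genes Col1a1 and Col1a2 were called higher in medium against ctrl (log2 fold changes 1.17 and 1.22) and lower in 4OHT against medium (-1.53 and -1.14). Col1a1 had 33.7 and 12.1 CPM in replicates 1 and 2 of medium beside 16.9 and 5.83 CPM in the same replicates of ctrl. The collagen gene Col3a1, alone of the 4, had a negative log2 fold change in medium against ctrl and was not called. It had 2.29 and 0.445 CPM in replicates 1 and 2 of medium beside 2.73 and 1.51 CPM in those of ctrl. Whether cells of these other types were present was not tested, nor was the part of any cell type in the differences of Alox5, Ltc4s and Ptger4.

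Around these genes, 10 lists of the wider pathway held 110 genes, of which 108 were found and 75 tested. The lists were chosen with earlier results of these data known, so the shares called in them are a description. In medium against ctrl 10 of the 75 were called higher and 5 lower, or 20.0% beside 7.79% of all genes, and the median log2 fold change was 0.07 beside 0.01. Without the replicate block 9 of these 15 were still called, and 3 without replicate 1 and 1 without replicate 2, which each leave 1 medium sample. In 4OHT against ctrl 0 were called higher and 2 lower, beside 0.350% and 0.763% of all genes.

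Genes of arachidonic acid release and reacylation went both ways in medium against ctrl. Of the 10 tested, 5 had a positive log2 fold change, and the list median was 0.05 beside 0.01 over all genes. Pla2g4a, the cytosolic phospholipase A2 that frees arachidonic acid from membranes, had 32.3, 34.9 and 12.5 CPM in ctrl, 10.7, 13.1 and 11.8 CPM in 4OHT and 7.75 and 11.6 CPM in medium (medium against ctrl, log2 fold change -1.74, SE 0.39, edgeR adjusted p = 0.0134). Ctrl replicate 3 lay near the medium samples, which did not overlap with ctrl. Of the list of release and reacylation, 1 of 10 tested members was called higher, the monoacylglycerol lipase Mgll (1.33), and 2 lower, Pla2g4a and the acyl-CoA synthetase Acsl3 (-1.48). Over all genes 3.69% were called higher and 4.10% lower in medium against ctrl. Mgll was at -0.01 without the block and not called.

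Of the 3 tested genes of arachidonic acid synthesis, both desaturases were called lower in medium against ctrl, beside 4.10% of all genes. The log2 fold change was -1.31 for Fads1 and -4.72 for Fads2. Fads2, the delta-6 desaturase, had 48.6, 70.9 and 21.1 CPM in ctrl, 55.5, 64.7 and 20.3 CPM in Fer1, 39.2, 39.1 and 13.9 CPM in 4OHT+Fer1, 12.5, 11.8 and 2.66 CPM in 4OHT and 2.29 and 2.34 CPM in medium. All 4OHT and medium samples were below those of the other 3 groups. Fads2 was called lower in 4OHT against ctrl (-2.45, SE 0.19, edgeR adjusted p = 0.000133) and against 4OHT+Fer1 (-1.85, SE 0.19, edgeR adjusted p = 0.00184), and higher in 4OHT against medium (2.27, SE 0.26, edgeR adjusted p = 0.00116). Without the block these 3 log2 fold changes were -2.37, -1.76 and 1.97, with larger SEs of 0.60, 0.59 and 0.78 and edgeR adjusted p-values of 0.190, 0.394 and 0.348, and were not called.

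Of the 6 other prostanoid receptors, Ptgir, the prostacyclin receptor gene, alone passed the filter, and Ptgdr, Ptgdr2, Ptgfr and Tbxa2r were at 0 in all samples. None of the 6 other lipoxygenase genes passed, and Alox12, Alox12b and Alox12e were at 0 in all samples, so that Alox5 was the one lipoxygenase gene measured above the filter. Of the 8 other prostanoid synthases 6 were tested and edgeR called 0 in medium against ctrl (7.79% of all genes), with 1 at an unadjusted p under 0.05 (24.0% of all genes). Hpgds, the hematopoietic prostaglandin D synthase gene, was the most abundant of them by counts, at 279 to 680 CPM. In transport and breakdown, 1 of 6 tested genes was called, lower in medium, beside 4.10% of all genes. It was Ptgr1, which inactivates prostaglandins and leukotriene B4 (-1.41, SE 0.20, edgeR adjusted p = 0.000679). Among leukotriene receptors and metabolism, 2 of 10 tested genes were called, both higher in medium, beside 3.69% of all genes. They were Dpep2 (1.04), a dipeptidase that converts leukotriene D4, and Fpr2 (2.67), a formyl peptide and lipoxin receptor. Of the epoxygenases and epoxide hydrolases 3 were tested and edgeR called 0 in medium against ctrl, with 0 at an unadjusted p under 0.05 (7.79% and 24.0% of all genes).

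Downstream of the EP receptors, 1 of 22 tested signalling genes was called in medium against ctrl, beside 7.79% of all genes. It was the cAMP-degrading phosphodiesterase Pde3b (2.27, SE 0.42, edgeR adjusted p = 0.00389). Its levels were 13.8, 11.9 and 69.0 CPM in replicates 1, 2 and 3 of ctrl and 81.8 and 96.1 CPM in medium. Ctrl replicate 3 thus lay near the medium samples, and medium had no replicate 3. Of 14 tested targets of cAMP and its transcription factor CREB, 6 were called higher in medium and 0 lower (3.69% and 4.10% of all genes). The 6 were Nr4a2 (2.50), Fos (2.08), Thbs1 (1.93), Pde7b (1.69), Dusp1 (1.61) and Sik1 (1.47), with a list median of 0.87 beside 0.01. Each of the 6 was called in 6 or 7 of 9 alternative analyses, and such genes also answer to signals other than cAMP. In 4OHT against 4OHT+Fer1, 3 of the 14 were called higher, Thbs1 (2.47), Nr4a2 (2.05) and Vegfa (1.44), beside 0.296% of all genes. These calls were kept in 6 of 9 alternative analyses for Thbs1, 5 for Nr4a2 and 5 for Vegfa. The list median was 0.70 beside 0.00 over all genes.

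Vegfa, the gene of vascular endothelial growth factor A, had 40.01, 32.7 and 45.6 CPM in ctrl, 39.8, 31.0 and 24.5 CPM in Fer1, 4.39, 2.44 and 3.89 CPM in 4OHT+Fer1, 10.5, 10.6 and 7.85 CPM in 4OHT and 57.0 and 67.3 CPM in medium. Both groups whose fibroblasts had received 4OHT lay below all others. The log2 fold change was -2.03 in 4OHT against ctrl (SE 0.24, edgeR adjusted p = 0.00406) and -3.14 in 4OHT+Fer1 against Fer1 (SE 0.26, edgeR adjusted p = 0.000433), each called in 6 of 9 alternative analyses. Vegfa (-2.66) and Pde7b (-1.34) were called lower in 4OHT against medium.

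**Figure D3:**
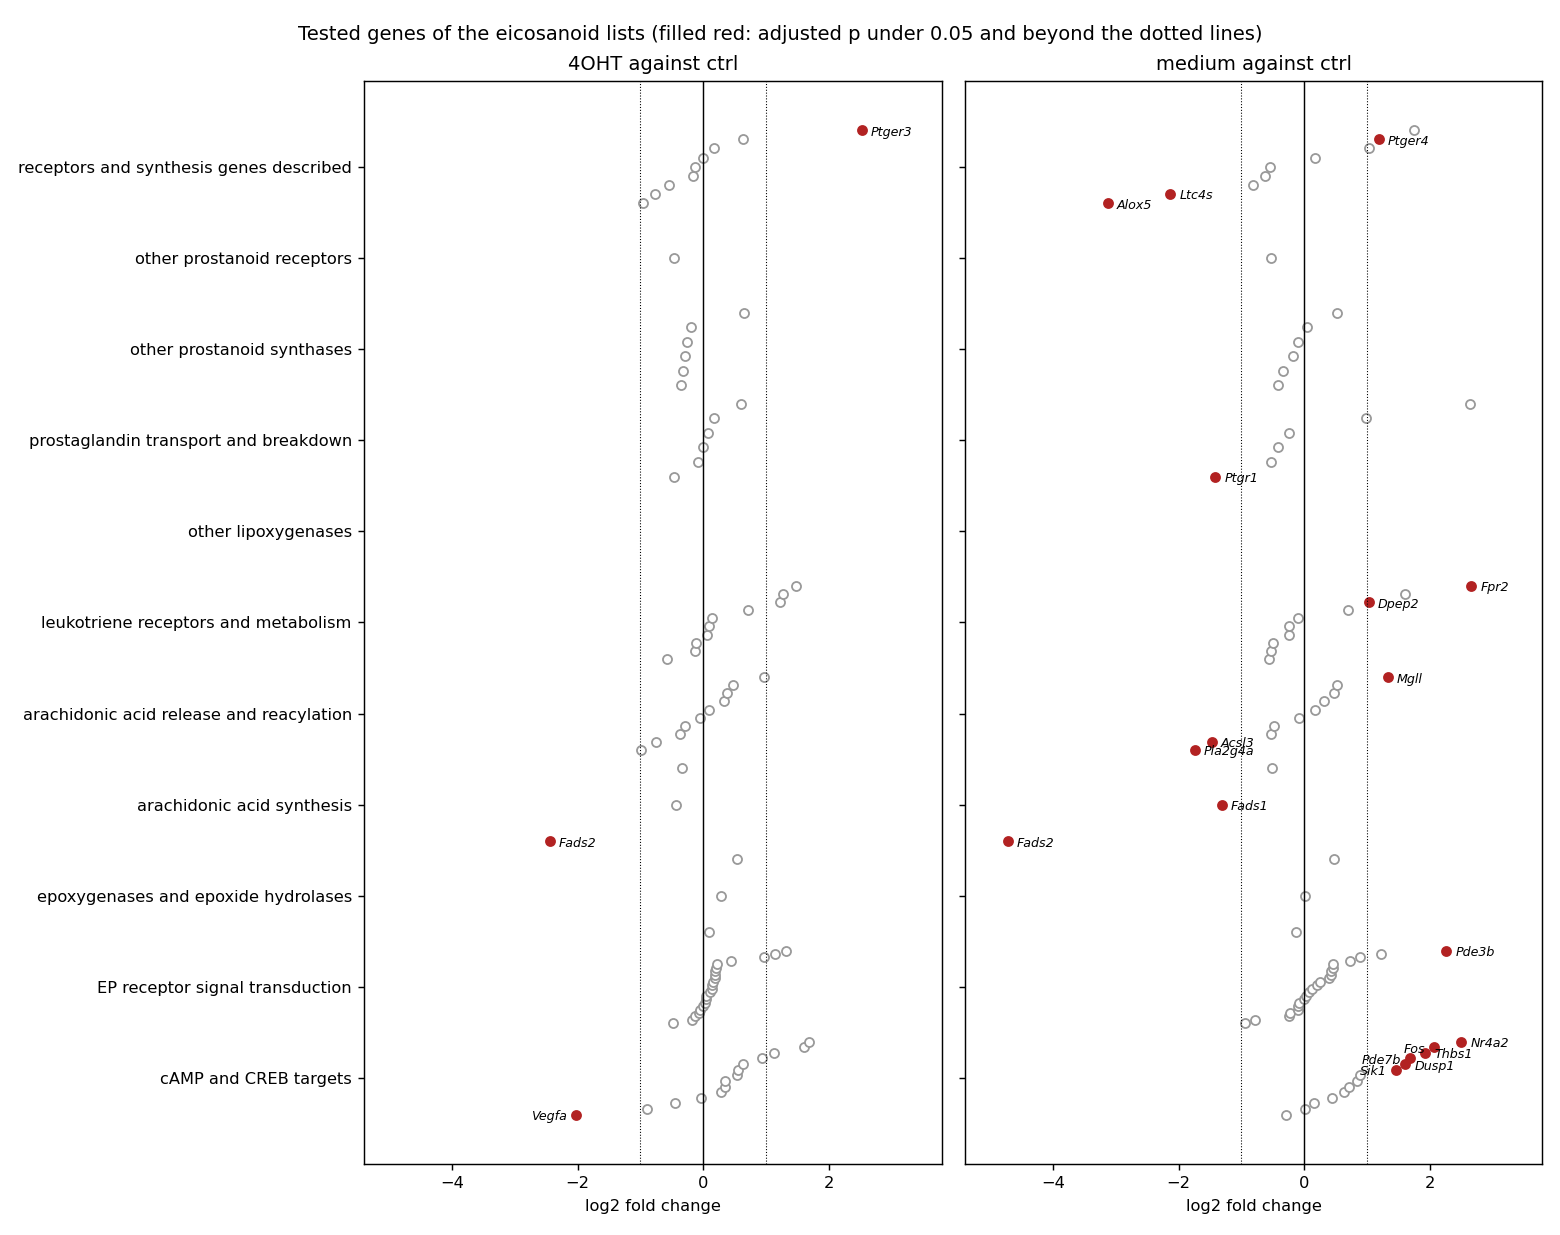
Log2 fold changes (x axis) of the tested genes of each list (y axis, genes sorted within a list) in 4OHT against ctrl and in medium against ctrl, filled red and named where called, with dotted lines at 1 and -1. Called genes are few on the left (Ptger3 2.53, Fads2 -2.45, Vegfa -2.03) and more frequent on the right.

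For each called member, the 3 tested genes with the highest Pearson correlation of log2 CPM over the 14 samples were named as a description, since samples share mice and treatments. For Alox5 these were Racgap1 (r = 0.98), Cdca3 (r = 0.98) and the histone variant gene H2az1 (r = 0.98). Racgap1, whose product acts in cytokinesis, had 13.03 CPM in 4OHT replicate 3 and 5.21 and 7.12 CPM in medium, against 31.0 to 66.7 CPM in the other 11 samples. Cdca3, a cell division cycle gene, had 7.09 CPM in 4OHT replicate 3 and 2.92 and 4.005 CPM in medium, against 27.5 to 60.6 CPM in the others. Alox5 itself stood at 3.92, 2.03 and 2.78 CPM in these 3 samples and at 11.5 to 26.4 CPM in the others, so the correlations rest largely on the same 3 samples.

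For Ltc4s the closest genes were Radx (r = 0.95), Ercc6l (r = 0.95) and the calcium pump gene Atp2a3 (r = 0.93). For Ptger3 they were the transporter genes Abca9 (r = 0.92) and Slc16a6 (r = 0.92) and the C-type lectin gene Clec4n (r = 0.91), and for Ptger4 they were Abi3 (r = 0.95), Tagln (r = 0.92) and Adap2 (r = 0.90). Clec4n had 15.0, 37.1 and 103.4 CPM in ctrl and 145, 176 and 213 CPM in 4OHT, with the same high replicate 3 in ctrl as Ptger3.

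**Figure D4:**
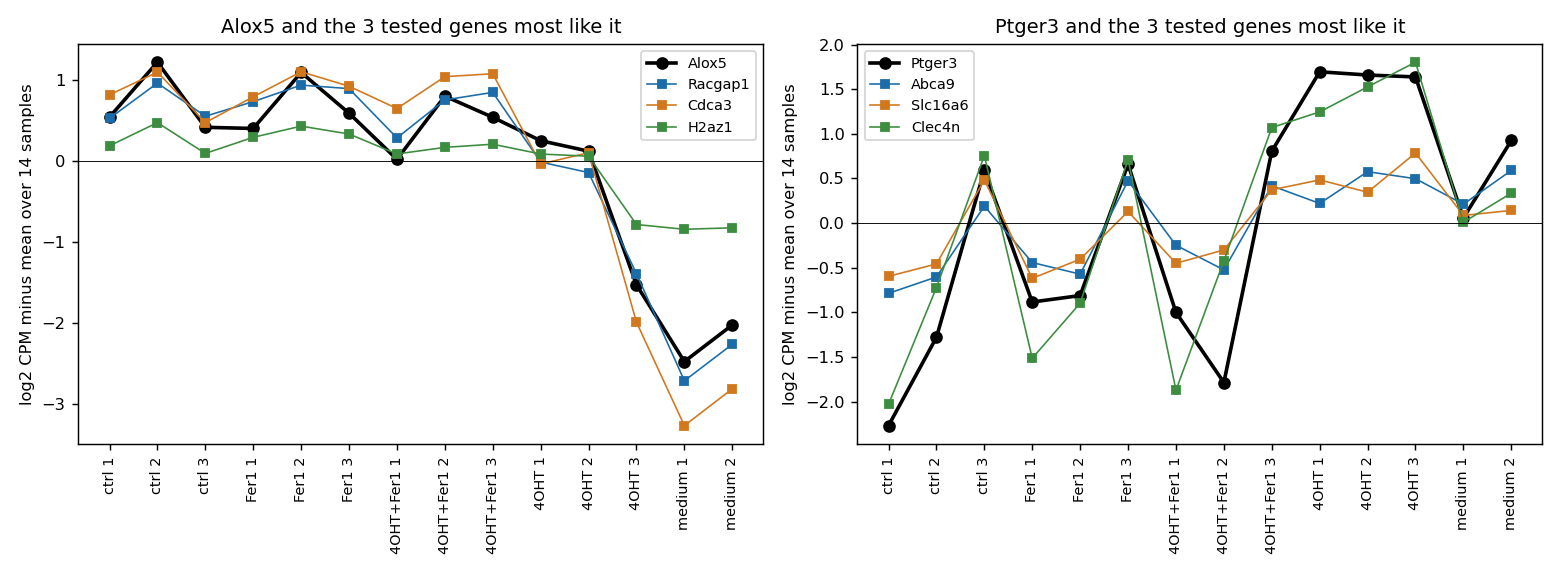
Log2 CPM minus the mean over the 14 samples (y axis) in each sample (x axis) for Alox5 and for Ptger3, in black, and for the 3 tested genes most like each, in colour. The Alox5 panel drops at 4OHT replicate 3 and at both medium samples, and the Ptger3 panel is highest in the 3 4OHT samples.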

How the data were processed

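RNA of pBMDMs after 24 h with supernatants of Pfa1 MEFs or fresh medium was sequenced with the QuantSeq 3′ kit. Per the methods of the paper and the submitters' processing notes, the authors aligned reads with STAR 2.7.10a, estimated abundance per gene with Salmon 1.5.2 through nf-core, and the deposited table holds expected counts, which are not normalized. The notes list both GRCh38 and GRCm38, and the methods name a human genome, while the identifiers are those of mouse genes. Coordinates given here are those of GENCODE M21 (GRCm38), and promoters those of RefSeq, which held 9 of the 10 members. Whether counting used strand is not given in the sources used here. A second deposited table holds the authors' DESeq2 1.36.0 comparisons (log2 fold changes, p-values, scores), which were not used, and 14 columns of per-sample CPM, which were not used either.

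The expected counts were rounded to whole numbers for the test (30109 values were not whole), where the plan had spoken of counts. Counts were scaled by TMM and fitted with the quasi-likelihood method of edgeR 4.0.16 under R 4.3.3 over all 14 samples with group and replicate number, since the study's methods put mouse ID in the design. Genes were kept by filterByExpr (minimum count 10), which left 12851, and called when the log2 fold change exceeded 1 in size with a Benjamini-Hochberg adjusted p under 0.05. SEs were derived from the fold change and F statistic. CPM values are counts over TMM-scaled library sizes, and log2 CPM used a prior count of 2. As a check of the pairing, the correlation over genes of the deviations from the group means had a median of 0.25 for 26 sample pairs with one replicate number, of which 21 were over 0.1, and -0.14 for 52 pairs with different numbers. Deviations from a group mean sum to 0 within the group, so these medians are not independent of each other. That samples with one number come from one mouse was taken from the study's design and not stated in the labels. P-values of the main fit measure the spread left between these samples once group and replicate number are fitted. The methods of the paper do not say whether each replicate number had its own supernatant preparation.

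The 10 members and the pathway and marker lists were chosen with earlier results of these data known. Named are the members, list genes called in at least 1 of the 7 comparisons, the 3 tested genes most like each called member, and abundant or undetected list genes chosen after their values were seen. Of 55414 identifiers, 52081 were found in the reference gene names. Scripts were tested on simulated data. Alternatives were DESeq2 1.42.0, RLE scaling, no filter and a minimum count of 30, no threshold on fold change, no replicate block, only the groups compared, and each replicate left out. Count limits cover counting error only, since PCR duplicates cannot be told from separate molecules.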

Additional observations from a re-analysis of the deposited data

Results flagged for a closer look

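The fall of Fads2, the delta-6 desaturase gene, with 4OHT was larger without than with Ferrostatin-1 in the test of that difference (log2 -1.86, SE 0.26, edgeR adjusted p = 0.0423), with 4OHT minus ctrl at -1.94, -2.57 and -2.89 in log2 CPM in replicates 1, 2 and 3 and 4OHT+Fer1 minus Fer1 at -0.50, -0.72 and -0.53. The call was lost without the block, when only the groups compared were fitted and without each replicate in turn (edgeR adjusted p from 0.0603 to 1 over these 5 analyses).

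Thbs1, the thrombospondin 1 gene, moved up in every replicate in 4OHT minus ctrl (1.84, 2.30 and 0.18 in log2 CPM) and down in every replicate in 4OHT+Fer1 minus Fer1 (-1.03, -0.93 and -0.53). The test of this difference gave 2.41 (SE 0.55) with an edgeR adjusted p of 0.251, which was not called. No member of the receptor and synthesis set met either condition.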

How the results depend on the processing

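Changes of the number of members called were as follows. In 4OHT against ctrl, 1 member was called, but 0 without the replicate block, 0 with only the groups compared, and 0 to 2 with a replicate left out. In 4OHT against 4OHT+Fer1, where 0 were called, DESeq2 and the analysis with no filter each called 1, and 0 to 2 were called with a replicate left out. In medium against ctrl, 3 were called, but 1 without the block, 4 with DESeq2, 4 with the stricter filter, 5 with only the groups compared, and 0 to 5 with a replicate left out. In 4OHT against medium, 3 were called, but 0 without the block, 2 with no filter and 0 to 3 with a replicate left out. For the other 3 comparisons the count was 0 in all alternatives run. The cause of these shifts was not tested. Without replicate 1 or 2 a single medium sample was left, which the fit assumes to vary like the other groups.

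Some log2 fold changes changed sign, all of values that were not called except Mgll, which was at -0.0066 in medium against ctrl without the replicate block. With a replicate left out, 4OHT against ctrl ran from -1.37 to 0.298 for Ptger2, from -0.289 to 0.262 for Ptges (with -0.0071 without replicate 1), from -0.275 to 0.0202 for Alox5ap and from -0.523 to 0.503 for Lta4h. Ptges in this comparison was also at -0.0027 with RLE scaling, -0.012 with no filter and -0.0409 with only the groups compared. In 4OHT against 4OHT+Fer1 leaving out a replicate gave -0.116 to 0.852 for Ptger2 and -0.118 to 0.130 for Alox5ap, and in 4OHT+Fer1 against Fer1 -0.491 to 0.0431 for Ptger3. In medium against ctrl it gave -1.18 to 0.0753 for Ptger2 and -0.339 to 0.754 for Ptges, and in 4OHT against medium -0.507 to 0.223 and -0.762 to 0.600. With only the groups compared Ptger2 was at 0.0521 in medium against ctrl and 0.216 in 4OHT against medium, and Ptgs1 was at 0.0240 in the latter without the replicate block. Ptgs2, Ptges and Ptger3 rest on few reads, which limits what these depths can show.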
